A study of Mus musculus with 37 samples.

Results

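Interferon-stimulated genes are the genes that cells switch on in response to interferons, and 37 of them were followed in RNA sequencing of murine jejunal organoids treated with the vasoactive intestinal peptide (VIP). The members were taken by gene symbol as a list of transcription factors, nucleic acid sensors, antiviral effectors and ubiquitin-like modifiers. The list was drawn up with earlier results of these data known, so the share of members called is descriptive only. A member was described in an experiment where it had at least 20 UMIs summed over the count table. A UMI is a unique molecular identifier, the tag by which amplified copies of one captured transcript are counted once. At this limit, 30 of the 37 members remained in whole organoids, 15 in sorted Lgr5-EGFP+ cells and 23 in the irradiation experiment, out of 27407, 20500 and 27547 genes in the respective tables. The filter for testable counts then kept 23, 4 and 11 of them, so the values of the tests describe only these.

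Type I interferons signal through the IFNAR receptor and its kinases to the factor ISGF3, which contains STAT2 and IRF9, and type III interferons reach the same factor in epithelial cells through their own receptor. ISGF3 binds the interferon-stimulated response element in the promoters of genes such as Isg15, the Ifit genes and the Oas genes, and IRF7 amplifies the response by driving further interferon genes. The intestinal epithelium keeps a part of this programme active in the absence of infection, and DNA damage can engage it through cytosolic nucleic acid sensors.

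The study asked how VIP, a peptide of enteric neurons, acts on intestinal epithelium and on its Lgr5+ progenitors, with and without radiation injury. Whole organoids from C57Bl6/J mice were untreated (3 mice) or given 100 nM VIP (4 mice) for 72 h, and mouse 4 had no untreated culture. Organoids of Lgr5-EGFP-IRES-CreERT2 mice, in which the Lgr5 locus drives EGFP and a tamoxifen-inducible Cre, were untreated or given 100 nM VIP for 72 h and sorted for EGFP (4 mice per group). In the third experiment sorted Lgr5-EGFP+ cells of 4 further mice were compared in 4 groups at 48 h, namely untreated, 100 nM VIP, 6 Gy irradiation, and 6 Gy irradiation with 100 nM VIP. Each sample is labelled with the mouse it came from, and organoids are cultures of crypt epithelium. The labels do not say whether technical replicate libraries came from the same culture or from separate wells. The labels name no interferon in any group. Samples of different groups were compared within the mouse.

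The total count was 3722716 to 6330404 UMIs per sample in whole organoids, 575242 to 1104126 in Lgr5-EGFP+ cells and 1075715 to 1876729 in the irradiation experiment. All 5 stem cell markers (Lgr5, Olfm4, Ascl2, Smoc2, Axin2) were detected in every group, and irradiation raised 7 of 7 p53 target genes in untreated and in VIP-treated cells. Immune cell markers were close to absent, with 72 UMIs over 16 genes in the 4 VIP-treated organoid samples and 43 in the 3 untreated ones. Their summed level was 1.77 to 4.60 and 2.19 to 4.58 CPM. CPM are UMIs per 1000000 UMIs of the sample in genes that passed the filter. The totals were scaled by TMM, a factor for differences in composition between samples, except where the library total is named. No UMI was recorded for Gzma, Cd79a, Adgre1 and Tyrobp in whole organoids. Detection of stem cell markers does not measure the purity of the sort, which was not tested. Lgr5 was at 45.2 to 100 CPM in untreated whole organoids and at 14.7 to 50.3 CPM in untreated sorted cells. In the untreated group of the irradiation experiment it was at 12.6 to 28.2 CPM. Olfm4 was at 1318 to 3722, 3625 to 5223 and 2468 to 3507 CPM in the same groups. The scaling was fitted to each experiment apart, so levels of different experiments were not scaled to each other. In whole organoids the pair of technical replicate libraries of VIP-treated mouse 3 differed from each other. Their correlation over log2(CPM of the library total + 1) of 9843 genes was 0.923, whereas the other 5 technical pairs correlated at 0.981 to 0.989. The mean chi-square per gene was 21.7 for this pair and 1.15 to 3.18 for the others. The first library correlated at 0.969 with the untreated library of mouse 3 and at 0.894 to 0.956 with libraries of other mice. The second library correlated at 0.947 with the untreated library of mouse 3, at 0.976 to 0.982 with untreated libraries of mice 1 and 2 and at 0.959 to 0.976 with VIP libraries of other mice. The goblet cell marker Clca1 was at 52.3 CPM of the library total in the second library. It was at 173 to 325 in the other VIP libraries and at 40.2 to 60.9 in untreated ones. Ifi27 and Isg20, given below, lay among the VIP libraries instead. Whether the label of the second library is right could not be settled from the files, and each value of VIP-treated mouse 3 pools both. Results for the members and further pathway genes called in whole organoids are therefore given with and without the second library. Other values pool both libraries unless stated.

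Promoter sequences are shown first, because many members share a response element that the list did not use. The stretches are the 150 bases before the annotated start from RefSeq on GRCm38.p6, 5′ to 3′ on the strand of the gene, and capitals mark matches to the letters GAAANNGAAA of the interferon-stimulated response element on either strand. The members with matches come first, Isg15 (chr4:156200819-156200968, minus strand), Ifit1 (chr19:34640739-34640888, plus strand) and Bst2 (chr8:71537473-71537622, minus strand).
Isg15: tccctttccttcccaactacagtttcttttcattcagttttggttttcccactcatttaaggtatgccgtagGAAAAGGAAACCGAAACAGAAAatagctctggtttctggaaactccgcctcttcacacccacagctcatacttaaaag
Ifit1: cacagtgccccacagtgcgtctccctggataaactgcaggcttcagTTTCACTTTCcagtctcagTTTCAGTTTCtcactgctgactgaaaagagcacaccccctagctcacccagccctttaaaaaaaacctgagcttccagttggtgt
Bst2: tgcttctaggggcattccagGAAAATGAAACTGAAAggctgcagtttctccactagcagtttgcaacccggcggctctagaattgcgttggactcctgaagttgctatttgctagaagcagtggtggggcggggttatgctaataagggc

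The same stretches follow for Oasl1 (chr5:114923090-114923239, plus strand), Irf7 (chr7:141266425-141266574, minus strand) and Samd9l (chr6:3399572-3399721, minus strand), which were among the members that rose with VIP in whole organoids and held no match.
Oasl1: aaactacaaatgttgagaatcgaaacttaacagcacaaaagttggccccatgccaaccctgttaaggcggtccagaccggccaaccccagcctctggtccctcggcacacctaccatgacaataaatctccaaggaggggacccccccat
Irf7: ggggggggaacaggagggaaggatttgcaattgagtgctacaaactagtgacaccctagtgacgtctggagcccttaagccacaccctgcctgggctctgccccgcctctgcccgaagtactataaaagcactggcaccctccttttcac
Samd9l: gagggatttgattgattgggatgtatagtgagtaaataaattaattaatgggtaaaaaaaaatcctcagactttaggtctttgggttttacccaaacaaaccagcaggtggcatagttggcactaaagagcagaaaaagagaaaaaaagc

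Promoter windows of 250 bases before and 50 after the start were found for 27 of the 37 members, and 14 of the 27 (51.9%) held the element at least once, against 3.99% of all 27025 genes with a window and 3.44% of all 32851 windows. Isg15 held 3 overlapping matches in the stretch shown, which form 1 run of 22 bases, and Ifit1 and Bst2 held 2 each. The other members with a match were Ddx58, Eif2ak2, Ifih1, Ifit3, Ifit3b, Ifitm3, Oas1a, Oas3, Rsad2, Stat2 and Trim30a. Of the 6 members that changed in whole organoids, 5 had a window, and only Ifitm3, which fell, held a match in it. The letters TTCNNNGAA of the gamma-activated site were also searched, and 8 of the 27 members (29.6%) held them, against 9.55% of genes. Isg20 and Ifitm3 held these letters, and Oasl1, Irf7 and Samd9l did not. A match describes letters in these windows, and starts outside the RefSeq table used were not searched. For some genes, such as Irf7, the GENCODE M21 gene begins within the stretch shown.

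In whole organoids VIP was followed by higher levels of Oasl1, Samd9l, Ifi27, Irf7 and Isg20 and a lower level of Ifitm3. Of the 23 members tested, 5 rose and 1 fell at an adjusted p of 0.05 or less in edgeR's quasi-likelihood test, and 17 did not pass. Over all 12727 genes tested, 4.69% changed, 3.64% upward and 1.05% downward. The median log2 fold change (log2FC) of the 23 members was 0.43 and that of all genes tested was −0.0041, and 21 of the 23 fitted values were above 0. An unadjusted p under 0.05 was reached by 13 members. DESeq2's Wald test called 3 of the 23, which were Irf7, Oasl1 and Samd9l, and 2.36% of all genes. Without the mouse as a block edgeR called 2, Ifi27 and Oasl1, and 0.794% of all genes.

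Without the second library of VIP-treated mouse 3, the same 6 members changed in the same directions, the median was 0.43, and 10.7% of 12684 genes were called. When that library alone stood for VIP-treated mouse 3, none of the 23 members and none of 12748 genes was called by edgeR, with 10 members and 714 genes at an unadjusted p under 0.05, and the median of the members was 0.53. In that fit the log2FC was 1.53 for Oasl1, 1.30 for Samd9l, 1.03 for Ifi27 and 0.89 for Isg20. It was 0.84 for Irf7 (SE 0.35) and −0.44 for Ifitm3. Their adjusted p in edgeR ran from 0.236 for Oasl1 to 0.868 for Irf7.

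Oasl1 (chr5:114923240-114937915 in the GENCODE M21 annotation of GRCm38) encodes a 2′-5′-oligoadenylate synthetase-like protein that restrains translation of Irf7 mRNA. Its level, as TMM-scaled CPM, was 25.8, 19.9 and 13.2 in untreated mice 1 to 3 and 67.4, 92.1 and 35.7 after VIP, with 68.3 in VIP-treated mouse 4. The groups did not overlap, and mouse 3 was the lowest of each group. The log2FC was 1.70 (SE 0.16, 3.25-fold, adjusted p = 3.48e-05, edgeR, higher in 3 of 3 mice). Without the second library of VIP-treated mouse 3 it was 1.77 (SE 0.14).

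Irf7 (chr7:141262706-141266481), the transcription factor that amplifies interferon production, was at 13.4, 10.6 and 16.9 CPM in untreated mice 1 to 3. After VIP it was at 27.2, 32.7 and 22.4 CPM, with 30.0 in mouse 4. All VIP-treated samples exceeded all untreated ones, and the smallest gap was that of mouse 3. The log2FC was 1.03 (SE 0.20, 2.05-fold, adjusted p = 0.00983, edgeR), and 1.15 (SE 0.16) without the second library of VIP-treated mouse 3. The 3′ end of Irf7 overlaps that of Phrf1 on the opposite strand by 45 bases, and the strand setting of the counting is not given in the sources used here. Phrf1 had a log2FC of 0.22 (SE 0.13, adjusted p = 0.471).

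Samd9l (chr6:3372257-3399572) encodes an antiviral protein that inhibits translation. It was at 26.8, 22.1 and 5.15 CPM in untreated mice 1 to 3 and at 41.9, 65.7 and 13 after VIP, with 33.2 in mouse 4. The groups overlapped, since VIP-treated mouse 3 lay below untreated mice 1 and 2, but the level was higher in 3 of 3 mice. The log2FC was 1.14 (SE 0.18, adjusted p = 0.00238), and the adjusted p was 0.707 without the mouse as a block. For Samd9l the second library of VIP-treated mouse 3 was at 21.3 CPM of its own total. The first library of VIP-treated mouse 3 was at 7.47 and the untreated library of mouse 3 at 4.84. Without it the log2FC was 1.05 (SE 0.19, adjusted p = 0.00503).

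Isg20 (chr7:78913424-78920396), an RNA exonuclease with antiviral activity, was at 4.07, 2.99 and 3.72 CPM without treatment and at 6.84, 6.95 and 9.33 after VIP in mice 1 to 3, with 5.89 in mouse 4. The groups did not overlap, and the log2FC was 1.07 (SE 0.25, adjusted p = 0.0236). Ifi27 (chr12:103434211-103440239), a mitochondrial protein of the interferon response, was at 7.98, 7.57 and 6.87 CPM and at 13.9, 17.4 and 14.2 CPM, with 13.3 in mouse 4. These groups did not overlap either, and the log2FC was 1.01 (SE 0.19, adjusted p = 0.00520). The second library of VIP-treated mouse 3 lay among the other VIP libraries for both, at 15.1 CPM of its own total for Ifi27 (other VIP 12.8 to 17.9, untreated at most 9.08) and at 6.13 for Isg20 (other VIP 5.37 to 11.1, untreated at most 4.81). Without it the log2FCs were 1.16 for Isg20 and 0.99 for Ifi27. Ifi27 has close paralogs, and Oasl1 has Oasl2, so reads shared within these families could be split between genes.

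Ifitm3 (chr7:141009586-141010770), a membrane protein that blocks viral entry, was the member that fell. It was at 156, 105 and 186 CPM in untreated mice 1 to 3 and at 128, 79.9 and 120 CPM after VIP, with 104 in mouse 4. The groups overlapped because mouse 2 was low in both, and the level was lower in 3 of 3 mice. The log2FC was −0.44 (SE 0.10, adjusted p = 0.0176), and −0.43 (SE 0.08) without the second library of VIP-treated mouse 3.

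**Figure D1:**
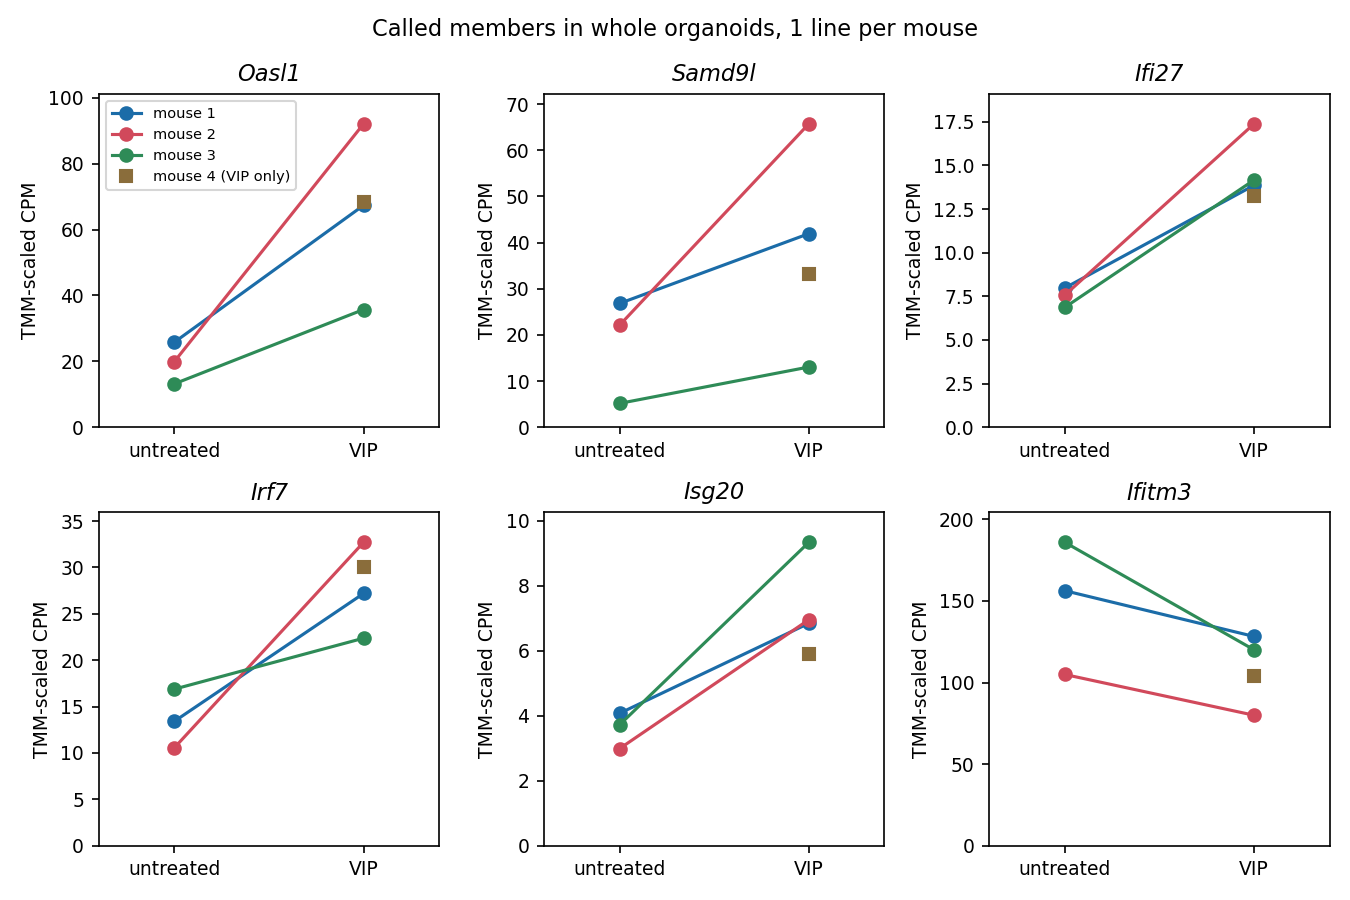
Levels of the 6 members called with VIP in whole organoids, as TMM-scaled CPM on a linear axis from 0, with 1 point per sample and a line joining the cultures of a mouse; the square is mouse 4, which had VIP only. Oasl1, Ifi27, Irf7, Isg20 and Samd9l are higher and Ifitm3 is lower after VIP in each of the 3 pairs, and Oasl1 reaches 92.1 CPM in VIP-treated mouse 2.

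The calls differed in how far they depended on single samples. Over the 23 alternative settings the adjusted p of Oasl1 was at most 0.236 and that of Samd9l at most 0.707, and both passed in each fit that left out 1 mouse. Without mouse 3 of both groups 9 members were called, the same 6 with Parp14, Stat2 and Trim25, while the share of all genes called was 13.1%. Without mouse 2, Ifi27 (adjusted p = 0.0597), Irf7 (0.0629) and Isg20 (0.136) no longer passed, and without mouse 1 this held for Ifitm3 (0.0724) and Isg20 (0.0571). Ifitm3 also missed the threshold without the second library of VIP-treated mouse 2 (0.0705) or of untreated mouse 2 (0.107). Isg20 missed it without the second library of VIP-treated mouse 2 (0.0502) or the first of untreated mouse 2 (0.0575).

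**Figure D2:**
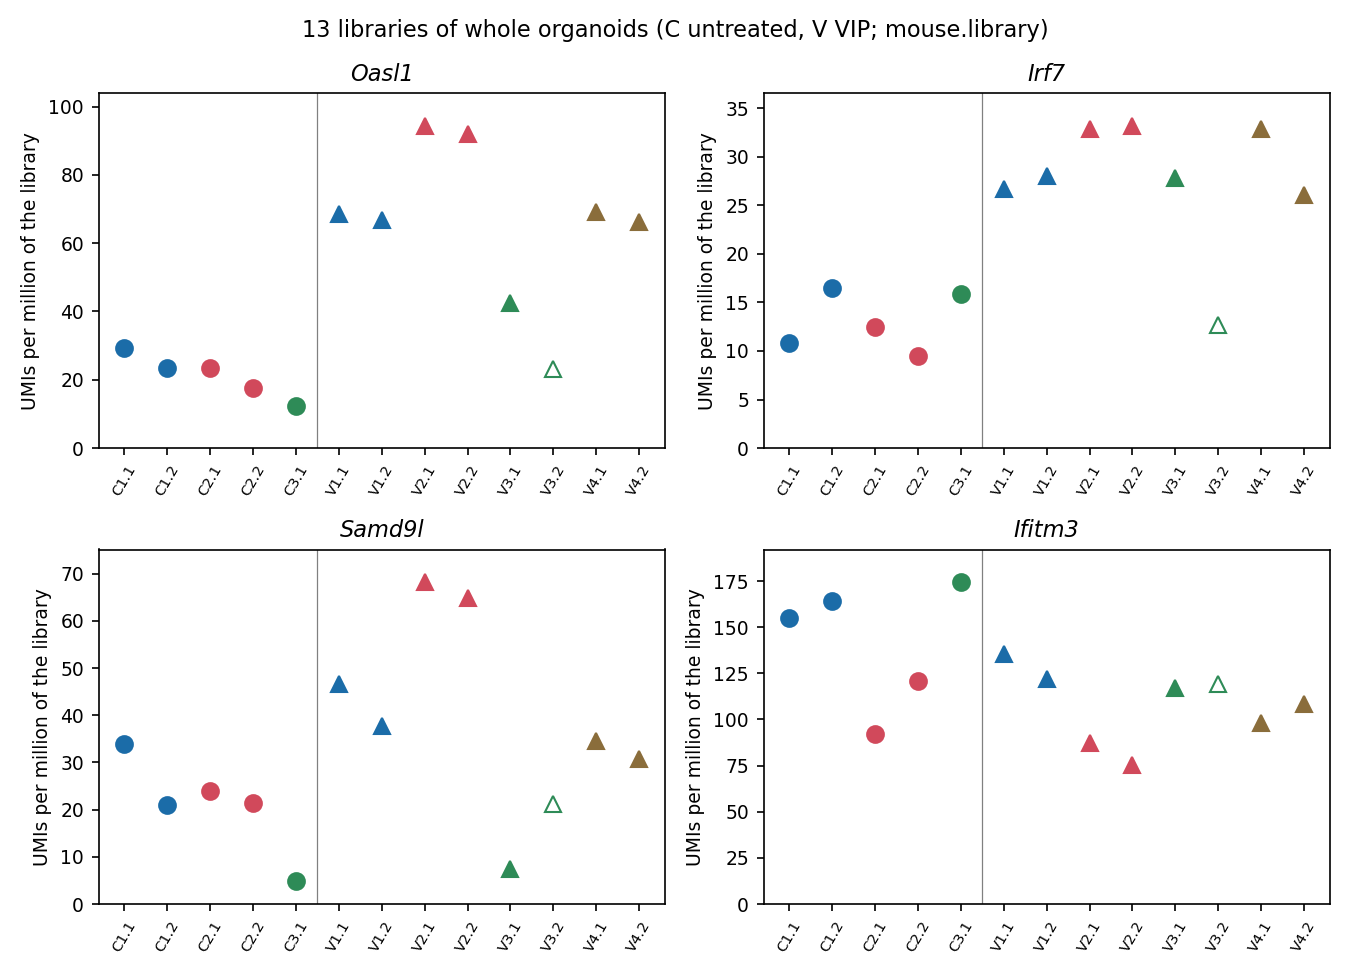
CPM of the library total (not TMM-scaled) for 4 members in the 13 single libraries of whole organoids, circles for untreated (C) and triangles for VIP (V), coloured by mouse and labelled mouse.library. The open triangle, the second library of VIP-treated mouse 3, is at 12.7 for Irf7 and 23.3 for Oasl1, among the untreated libraries, whereas its partner is at 27.8 and 42.5. For Samd9l and Ifitm3 the untreated and VIP libraries overlap and it lies within both.

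Among the transcription factors, Stat2, a subunit of ISGF3, was at 9.33, 10.8 and 5.44 CPM without treatment and at 12.6, 20.4, 8.21 and 8.47 CPM with VIP. It was higher in 3 of 3 mice with a log2FC of 0.67 (SE 0.19) and an adjusted p of 0.0676. Irf9, the DNA-binding subunit of ISGF3, had a log2FC of 0.21 (SE 0.21, adjusted p = 0.703). Irf1, a factor induced mainly by interferon gamma, had one of −0.09 (SE 0.19, adjusted p = 0.890), and its highest sample was untreated mouse 3 at 48.3 CPM against 21.5 to 31.6 in all others. Of the 4 members that are transcription factors, Irf7 was thus the one that passed the test.

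The OAS family, the synthetases of the RNase L activator and their relatives, had 3 members tested. Besides Oasl1, Oasl2 had a log2FC of 0.85 (SE 0.34, adjusted p = 0.213) and Oas1a one of 0.79 (SE 0.37, adjusted p = 0.316), each higher in 3 of 3 mice at single-digit CPM. Oas2 and Oas3 had 2 and 7 UMIs in all libraries together. Of the IFIT family, proteins that bind foreign RNA, Ifit1 was testable. It was at 2.72, 2.59 and 0.572 CPM without treatment and 3.68, 4.11, 3.06 and 4.79 CPM with VIP, which did not overlap, and its log2FC was 0.83 (SE 0.36, adjusted p = 0.268). Ifit2, Ifit3 and Ifit3b had 34, 23 and 6 UMIs in all libraries, and Ifit3 and Ifit3b are near-identical copies.

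Isg15, the ubiquitin-like modifier, was at 1.19, 1.79 and 2.86 CPM in untreated mice and 3.16, 3.79, 2.90 and 3.68 CPM with VIP. The groups were separated by a narrow margin in mouse 3, and the log2FC was 0.82 (SE 0.37, adjusted p = 0.290). Trim25, the ligase that activates RIG-I, had a log2FC of 0.43 (SE 0.13, adjusted p = 0.0744, higher in 3 of 3 mice), and Dtx3l one of 0.27 (SE 0.17, adjusted p = 0.495). The ADP-ribosyltransferases Parp14 and Parp9 had log2FCs of 0.76 (SE 0.26, adjusted p = 0.141) and 0.15 (SE 0.19, adjusted p = 0.775).

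Of the RNA sensors, Ddx58 (RIG-I), Eif2ak2 (PKR) and Ifih1 (MDA5) had log2FCs of 0.36 (SE 0.24), 0.31 (SE 0.13) and 0.13 (SE 0.17), and none of the 3 passed, with a lowest adjusted p of 0.245. Bst2, tetherin, which holds virions at the cell surface, was at 19.3, 15.9 and 21.2 CPM without treatment and at 18.1, 21.2, 21.1 and 21.6 CPM with VIP. Its log2FC was 0.10 (SE 0.16, adjusted p = 0.827). Ifi35 and Lgals3bp, 2 of the members with the most UMIs, had log2FCs of 0.01 (SE 0.10) and 0.02 (SE 0.09). The members with at least 20 UMIs that could not be tested were Dhx58, Ifit2, Ifit3, Rsad2, Rtp4, Usp18 and Zbp1, with 23 to 50 UMIs. Mx1, Mx2, Trim30a and Xaf1, with Oas2, Oas3 and Ifit3b, remained under 20 UMIs.

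**Figure D3:**
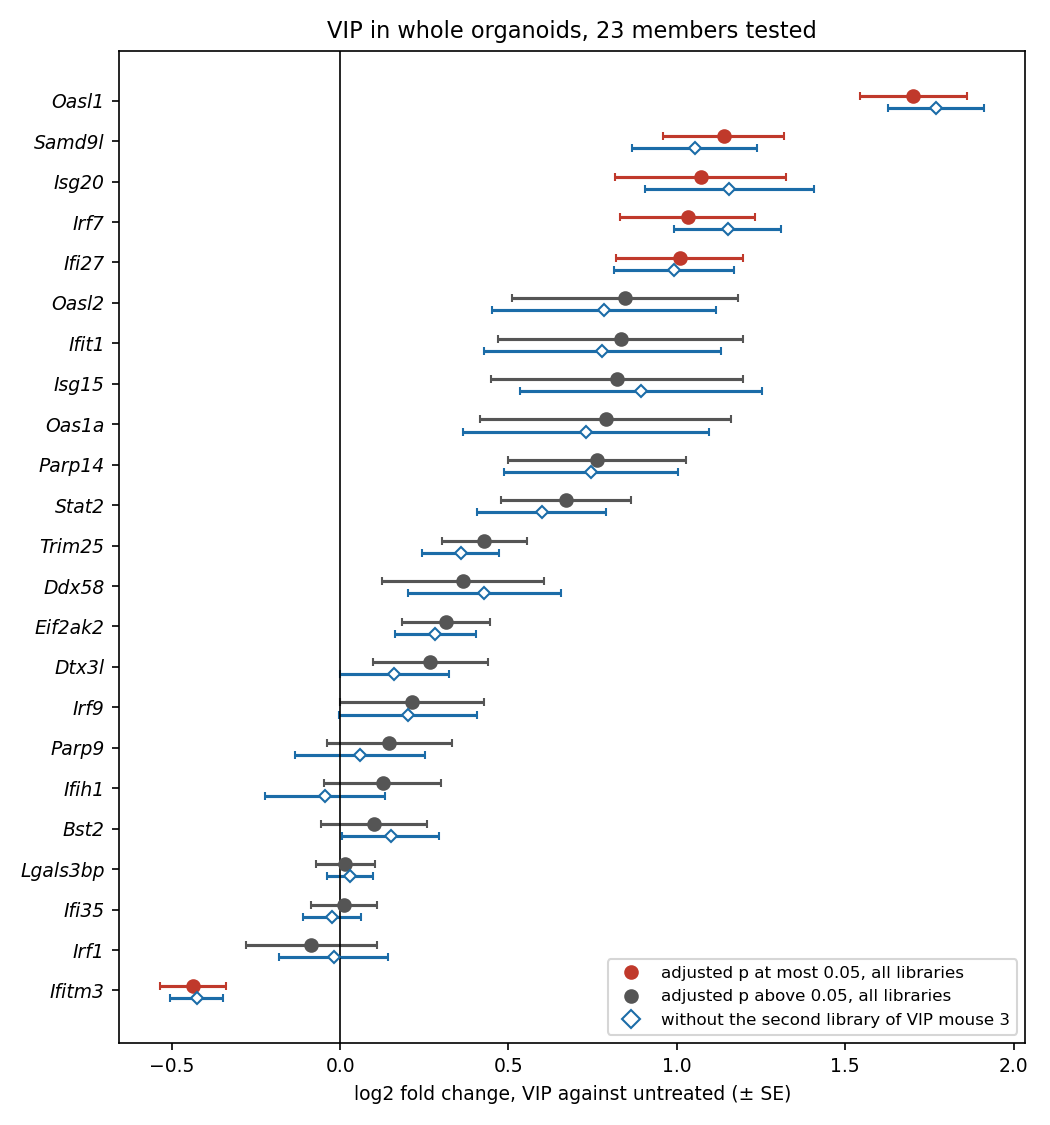
Log2 fold change with VIP in whole organoids (± SE) for the 23 members tested, ordered by size; circles are the fit with all libraries, red where the adjusted p was 0.05 or less, and open diamonds the fit without the second library of VIP-treated mouse 3. The values run from −0.44 for Ifitm3 to 1.70 for Oasl1, and the diamonds lie within 1 SE of the circles.

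Within each group 1 mouse stood at an end of the range for many members. In untreated organoids mouse 3 was the lowest of 3 for 14 of the 23 members tested, against 42.7% of all genes tested. After VIP mouse 2 was the highest of 4 for 15 of the 23, against 33.8% of all genes. These are different mice, so the counts do not show that a mouse kept its rank. Untreated mouse 3 had a single library, which correlated at 0.910 to 0.959 with libraries of other mice. The goblet cell markers Muc2, Clca1, Tff3 and Fcgbp moved with VIP as well. All 4 rose, with log2FCs of 0.52 to 2.08, and their summed level was 2610 to 2786 CPM with VIP and 1631 to 1845 CPM without. Of the epithelial markers Krt8 (0.52), Krt18 (0.49) and Vil1 (0.38) rose on the log2 scale. Their summed level over 6 markers was 4749 to 5210 CPM with VIP and 3593 to 4438 CPM without. Of the 5 enterocyte markers Fabp1 fell (−0.49), whereas Alpi (1.35), Apoa1 (0.52), Apoa4 (0.10) and Sis (−0.17) did not pass, so the list had no common direction. In bulk samples, more cells of a type and more RNA per cell cannot be told apart. The part of these cells in the result for the members was not tested.

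Further genes of the pathway were followed by a list of 81 symbols, of which 48 were tested in whole organoids. Of these, 3 rose and none fell by edgeR, with 8 at an unadjusted p under 0.05, and DESeq2 called 1. The 3 are 6.25% of the 48, near the 4.69% of all genes, and the median of the 48 was 0.14. Those that rose were Ly6e, a surface protein of the interferon response, Shisa5 and the RIG-I-like helicase Ddx60. Ly6e was at 84.9, 61.7 and 81.0 CPM in untreated mice and at 143, 111, 107 and 114 CPM with VIP, without overlap (log2FC 0.67, SE 0.11, adjusted p = 0.00169). Ddx60 had a log2FC of 1.29 (SE 0.33, adjusted p = 0.0371) and Shisa5 one of 0.37 (SE 0.10, adjusted p = 0.0359). Without the second library of VIP-treated mouse 3 the log2FCs were 0.78 for Ly6e, 1.42 for Ddx60 and 0.45 for Shisa5. That library lay among the untreated ones for all of them, in CPM of the library total. It was at 62.9 for Ly6e (untreated 61.4 to 89.8), 1.63 for Ddx60 (1.33 to 3.14) and 95.2 for Shisa5 (77.9 to 99.1). None of the 6 receptor subunits, 10 sensor and adaptor genes or 7 inhibitors passed in the edgeR test, with 0, 1 and 1 at an unadjusted p under 0.05, and DESeq2 called 0 of each. Of 9 interferon ligand genes, Ifne and Ifnk had 1 UMI each, and the others are not analysed here.

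In sorted Lgr5-EGFP+ cells without irradiation, none of the 4 members tested passed the threshold with VIP. At the total counts of this experiment, 15 members had at least 20 UMIs, 14 had 1 to 16, and 8 are not analysed there. edgeR called 0.0738% of 6778 genes, 0 of 4 members and 0 members at an unadjusted p under 0.05, and DESeq2 called 0 members, also with 0 at an unadjusted p under 0.05. The median log2FC of the 4 was −0.05, and that of all genes −0.0015.

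Ifitm3 was at 99.0, 129, 193 and 168 CPM in untreated mice 1 to 4 and at 137, 134, 198 and 183 CPM with VIP. The groups overlapped, and the level was higher with VIP in 4 of 4 mice (log2FC 0.17, SE 0.15, adjusted p = 0.951). Ifi35, a regulator of interferon signalling, had a log2FC of −0.33 (SE 0.26, adjusted p = 0.943), lower in 4 of 4 mice. Lgals3bp, a secreted glycoprotein, had one of −0.14 (SE 0.15, adjusted p = 0.951) and Trim25 one of 0.04 (SE 0.36, adjusted p = 0.997).

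Members named in whole organoids were near the counting limit in these cells. Irf7 was at 0 to 6.11 CPM in untreated and 0 to 4.85 CPM in VIP-treated cells, from 14 UMIs over all 8 samples, and Oasl1 at 0 to 6.11 and 1.71 to 5.64 CPM from 16 UMIs. Samd9l had 21 UMIs, Isg20 had 20, Irf9 11, Isg15 10 and Ifit1 2. Irf1 was at 6.11 to 20.1 CPM without and 8.54 to 15.9 CPM with VIP, Bst2 at 3.67 to 18.8 and 7.52 to 27.3 CPM, and Stat2 at 3.35 to 15.9 and 3.23 to 7.47 CPM. All of these ranges overlapped, and Irf7 and Oasl1 had too few counts to be tested. Of the other pathway genes, 15 were tested and edgeR called none, with 1 at an unadjusted p under 0.05 (Ly6e, log2FC 0.50, SE 0.19, adjusted p = 0.898), and DESeq2 called 0 with 0 at an unadjusted p under 0.05.

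An interaction term fitted over both tables asked whether the VIP effect differed between compartments, with 15 members tested. No member was called by edgeR, against 0.128% of 10194 genes, 2 had an unadjusted p under 0.05, and DESeq2 called 0 with 2 at an unadjusted p under 0.05. These were Ifitm3, with a difference of 0.60 in log2FC (sorted cells minus whole organoids, SE 0.18, adjusted p = 0.391), and Ifi27, with −1.35 (SE 0.61, adjusted p = 0.756). Samd9l followed with −1.38 (SE 0.72, adjusted p = 0.831) and Stat2 with −0.98 (SE 0.60, adjusted p = 0.878). For Irf7 the difference was −1.44 with an SE of 1.05. The Ifitm3 level was thus lower with VIP in whole organoids in 3 of 3 mice and higher in sorted cells in 4 of 4 mice, a difference that did not pass after adjustment. The compartments came from different mice and tables.

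In the irradiation experiment 11 members were tested, and 1 of them, Ifitm3, rose after 6 Gy in untreated cells. edgeR called 1 of 11 members and 4.5% of 9976 genes, with 2 members at an unadjusted p under 0.05, and DESeq2 called none of the 11, with 1 at an unadjusted p under 0.05. The median log2FC was 0.26 over the 11 members and −0.0041 over all genes.

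Ifitm3 was at 262, 234, 261 and 194 CPM in non-irradiated untreated mice 1 to 4, and at 276, 291, 305 and 264 CPM after irradiation. All irradiated samples lay above all non-irradiated ones, by a narrow margin between the lowest irradiated and the highest non-irradiated sample. The log2FC was 0.26 (SE 0.08, 1.20-fold, adjusted p = 0.0360, higher in 4 of 4 mice). Ifitm3 passed without mouse 1 (adjusted p = 0.00560) and missed the threshold in the other fits that left out 1 mouse, where the adjusted p was 0.160 without mouse 2, 0.104 without mouse 3 and 0.343 without mouse 4. It was 0.157 without the mouse as a block and 0.0615 when only these 2 groups were fitted.

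Irf7 was at 4.39, 8.14, 6.87 and 7.32 CPM without and at 13, 8.24, 10.6 and 12.1 CPM after irradiation in untreated cells. It was higher in 4 of 4 mice and the groups did not overlap, with mouse 2 nearly level (log2FC 0.69, SE 0.31, adjusted p = 0.240). Bst2 had a log2FC of 0.29 (SE 0.27, adjusted p = 0.669), Ifi27 one of 0.41 (SE 0.39, adjusted p = 0.675) and Irf1 one of 0.19 (SE 0.27, adjusted p = 0.790). Oasl1, which had 114 UMIs over the 16 samples and did not pass the filter, was at 1.33 to 5.65 CPM in non-irradiated and 4.73 to 10.6 CPM in irradiated untreated cells, and it passed both the filter and the test when mouse 1 was left out, as a second member called beside Ifitm3. Ly6e, of the further pathway genes, rose with a log2FC of 0.54 (SE 0.11, adjusted p = 0.00104). It was the 1 of 32 that passed, a share of 3.12% against 4.5% of all genes.

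In VIP-treated cells no member passed after irradiation by edgeR (0 of 11, 2 at an unadjusted p under 0.05) or DESeq2 (0 of 11, 1 at an unadjusted p under 0.05), whereas 8.4% of 9976 genes were called. The median log2FC of the members was 0.20. Ifitm3 was at 233, 212, 282 and 211 CPM with VIP alone and at 306, 267, 262 and 240 CPM with VIP and irradiation. It was higher in 3 of 4 mice, with mouse 3 in the opposite direction (log2FC 0.20, SE 0.08, adjusted p = 0.102), and without mouse 3 the log2FC was 0.31 with an adjusted p of 0.0303. Bst2 had a log2FC of 0.57 (SE 0.26, adjusted p = 0.180), Irf1 one of 0.52 (SE 0.26, adjusted p = 0.238, higher in 4 of 4 mice) and Lgals3bp one of 0.13 (SE 0.07, adjusted p = 0.261, higher in 4 of 4 mice). Irf7 had one of 0.15 (SE 0.30, adjusted p = 0.837). Of the 32 further pathway genes, Ly6e (0.36, SE 0.11, adjusted p = 0.0260), Pml (1.0, SE 0.33, adjusted p = 0.0469) and Jak1 (0.54, SE 0.18, adjusted p = 0.0484) rose on the log2 scale and none fell, a share of 9.38% near that of all genes. DESeq2 called none of these 32, with 6 at an unadjusted p under 0.05.

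**Figure D4:**
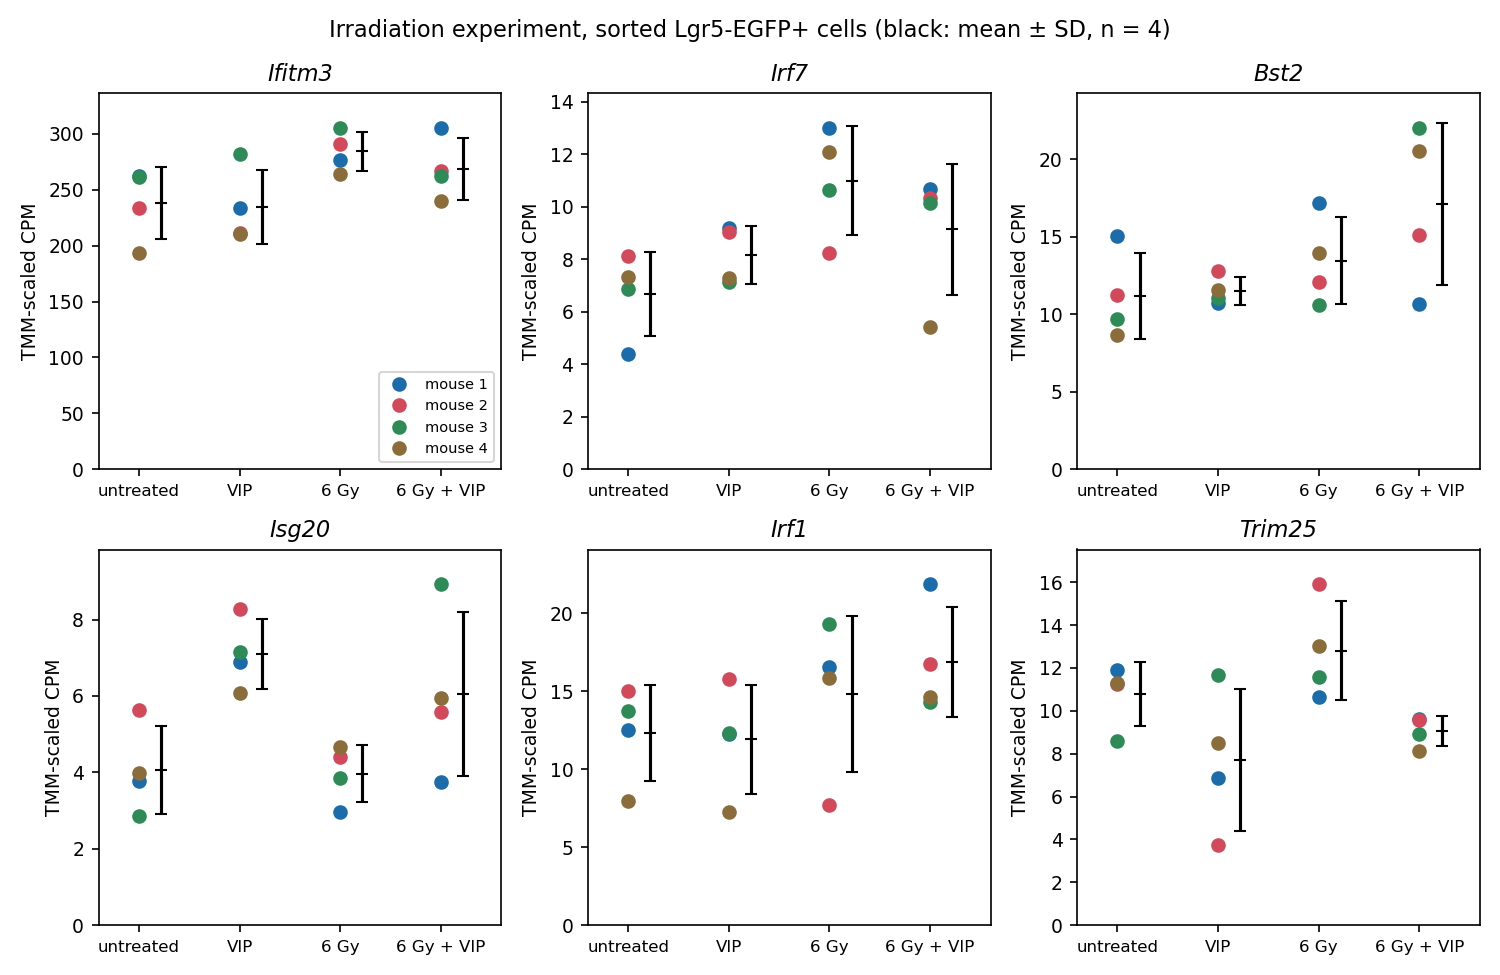
TMM-scaled CPM of 6 members in sorted Lgr5-EGFP+ cells of the irradiation experiment, 1 point per sample coloured by mouse, with the mean ± SD of each group of 4 in black on linear axes from 0. The irradiated untreated samples of Ifitm3 sit at 264 to 305 CPM, above the 194 to 262 CPM of the non-irradiated untreated samples, and the groups of Irf1 overlap.

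Lineage markers moved with irradiation in the same samples. In untreated cells 2 of 4 goblet cell, 3 of 4 Paneth cell and 3 of 3 enteroendocrine cell markers rose and 2 of 5 stem cell markers fell, while immune cell markers totalled 23 UMIs before and 21 after irradiation over 4 samples each. The summed goblet cell level was 1136 to 1930 CPM before and 1763 to 2335 CPM after irradiation. The part of these cells in the Ifitm3 result was not tested.

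No tested member passed the threshold with VIP in this experiment, with or without irradiation. In non-irradiated cells edgeR called 0 of 11 members, with 1 at an unadjusted p under 0.05, against 1.1% of 9976 genes, and DESeq2 called 0 with 0 at an unadjusted p under 0.05. The member with the smallest p was Isg20, at 3.76, 5.63, 2.86 and 3.99 CPM without and 6.88, 8.28, 7.14 and 6.07 CPM with VIP. It was higher in 4 of 4 mice without overlap (log2FC 0.79, SE 0.37, adjusted p = 0.369). Lgals3bp was lower in 4 of 4 mice (−0.13, SE 0.07, adjusted p = 0.460), and Trim25 and Ifi27 had log2FCs of −0.45 (SE 0.30) and 0.41 (SE 0.38).

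After 6 Gy, VIP compared with no VIP gave 0 of 11 members called by edgeR, with 0 at an unadjusted p under 0.05, against 0.19% of 9976 genes, and 0 and 0 by DESeq2. Isg20 was at 2.96, 4.40, 3.86 and 4.66 CPM without and 3.74, 5.57, 8.94 and 5.95 CPM with VIP, again higher in 4 of 4 mice (log2FC 0.62, SE 0.39, adjusted p = 0.973). Trim25 was lower in 4 of 4 mice without overlap (−0.52, SE 0.28, adjusted p = 0.947), and Bst2 and Ifitm3 had log2FCs of 0.32 (SE 0.25) and −0.08 (SE 0.08). Irf7 had a log2FC of 0.28 (SE 0.32) with VIP before irradiation and −0.26 (SE 0.29) after it. The medians over the 11 members were −0.07 and 0.04. These comparisons share samples with those of irradiation.

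The interaction of VIP and irradiation called 0 of 11 members and 0% of 9976 genes by edgeR, with 0 members and 609 genes at an unadjusted p under 0.05, and DESeq2 called 0 of either, with 0 members and 266 genes at an unadjusted p under 0.05. The members with the smallest p were those of Lgals3bp (0.17, SE 0.10), Ifi27 (−0.79, SE 0.54), Irf7 (−0.54, SE 0.44) and Ifi35 (0.19, SE 0.20) on the log2 scale.

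**Figure D5:**
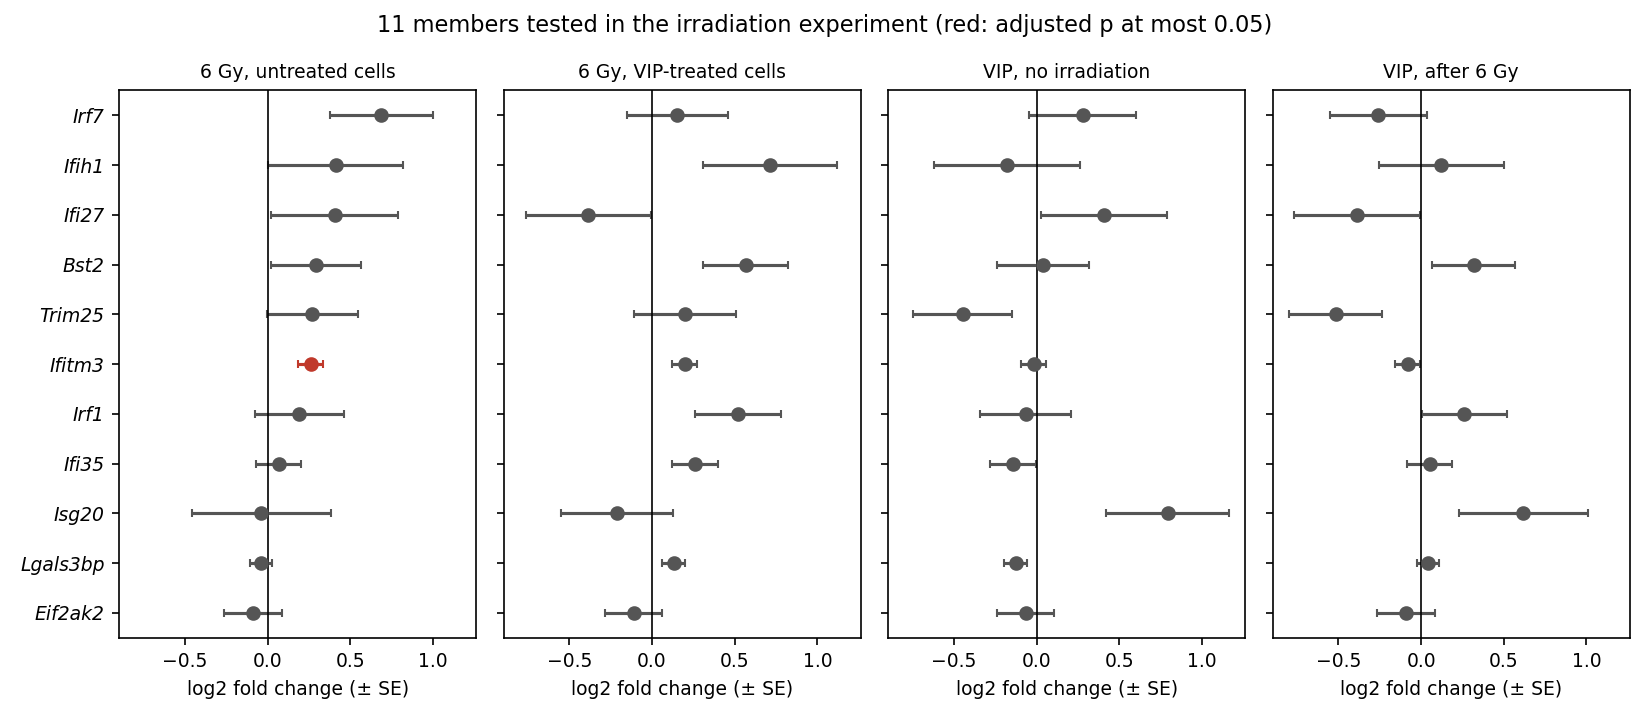
Log2 fold changes (± SE) of the 11 members tested in the irradiation experiment, for irradiation in untreated and in VIP-treated cells and for VIP without and after 6 Gy; red marks an adjusted p of 0.05 or less. Ifitm3 with irradiation in untreated cells, at 0.26, is the 1 value in red, and Isg20 is at 0.79 and 0.62 with VIP.

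The remaining fixed members were low in this experiment. Irf9 was at 1.72 to 5.99 CPM in untreated, 3.64 to 6.02 in VIP-treated, 1.65 to 7.45 in irradiated and 2.14 to 6.49 CPM in irradiated VIP-treated cells, and Stat2 at 1.88 to 3.43, 0.649 to 4.59, 2.20 to 5.80 and 2.67 to 5.41 CPM. Isg15 reached at most 3.79 CPM and Ifit1 at most 3.55 CPM, from 33 and 20 UMIs over 16 samples. None of the 4 passed the filter. Usp18, the protease that removes ISG15, was at 1.88 to 3.76 CPM in untreated and 1.86 to 7.73 CPM in irradiated untreated cells from 74 UMIs in all.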

How the data were processed

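Barcoded 3′ libraries were processed by the authors with the Drop-seq pipeline 1.0 (GRCm38, GENCODE M25). Each deposited table holds UMI counts by gene and library without normalization. Here, technical libraries of the same mouse and group were summed. Counts were tested in R 4.3.3 with edgeR 4.0.16 (TMM, filterByExpr, robust quasi-likelihood fit, mouse as a block), adjusted by Benjamini-Hochberg over all genes tested, at a threshold of 0.05. DESeq2 1.42.0 was an alternative. Scripts were tested on simulated data. The mouse number marks organoid cultures of the same animal. Deviations from the group mean correlated at 0.27 to 0.63 within mice in whole organoids, 0.03 to 0.21 in Lgr5-EGFP+ cells and −0.07 to 0.16 in the irradiation experiment. Between different mice they correlated at −0.54 to 0.33, −0.14 to 0.15 and −0.20 to 0.20. In the irradiation experiment the range within mice thus lay inside that between mice. The count of columns without a sample was 0. Genes past the threshold were named, or the 4 of smallest p, with Irf1, Irf7, Irf9, Stat2, Isg15, Ifit1 and Bst2 in every experiment. A further gene of that rule is not reported here. Members and lists were chosen with earlier results of these data known. Interferon ligands, apart from Ifne and Ifnk, were not analysed here. Precision is limited by the counts given. The SEs were derived as the absolute log2FC divided by the square root of edgeR's F statistic, since that test gives none. F includes the spread between samples, whereas intervals drawn from the counts alone would cover counting error only.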

Additional observations from a re-analysis of the deposited data

Results flagged for a closer look

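Ifi27 was at 14.9 CPM in non-irradiated VIP-treated Lgr5-EGFP+ cells of mouse 3, while the other 3 mice of that group were at 4.86 to 6.12 CPM. The gap to the nearest sample was 0.875 of the range of the group, which exceeds the critical value of Dixon's test for 4 samples. Of 40 gene and group pairs examined, this was the 1 that exceeded it, and chance gives about 1 in 20.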

How the results depend on the processing

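In whole organoids 6 members were called with VIP. DESeq2 called 3, and 0 were called when the first library of VIP-treated mouse 3 was left out, an alternative chosen after seeing the data. Without the mouse as a block the pairing was not used and 2 were called. Leaving out 1 mouse at a time gave 3 to 9. For irradiation of untreated cells, with 1 member called, DESeq2, the test of all genes with any count, the fit without the block and the fit of only these 2 groups called 0 each, and leaving out 1 mouse gave 0 to 2. For irradiation of VIP-treated cells, with 0 called, it gave 0 to 1. The block changed the count of members called in no other comparison. Direction reversed without 1 mouse for members that were not called. The log2 fold change of Trim25 with VIP in Lgr5-EGFP+ cells ran from −0.37 to 0.38, also −0.11 without mouse 2. That of Ifi27 with VIP in non-irradiated cells ran from −0.32 to 0.74 and its interaction from −1.38 to 0.30, and the compartment interaction of Stat2 from −1.62 to 0.053. Over all values of single genes under the alternatives, 382 kept direction and side of the threshold, 30 lost the threshold, 1 gained it and 5 reversed. The causes were not tested. In sorted cells without irradiation 4 of 37 members had the counts to be tested.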
